A study of Drosophila melanogaster and Drosophila ananassae and Drosophila pseudoobscura with 52 samples.

Results

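The sites described here are 69 positions of A-to-I RNA editing whose editing level varied widely between 8 inbred strains of D.mel. Adenosine deaminases acting on RNA (ADARs) bind double-stranded RNA and convert adenosine to inosine, which the ribosome and reverse transcriptase read as guanosine. An edited position therefore appears in cDNA as a mixture of A and G. In flies, ADAR acts mainly in the nervous system, where many of its targets encode ion channels and proteins of synaptic transmission. How strongly an adenosine is edited is known to depend on the bases next to it and on the RNA structure that it lies in.

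Levels were measured by mmPCR-seq, in which chosen editing loci are amplified from cDNA by microfluidic multiplex PCR and sequenced. The strains were lines 26, 325, 352, 441, 721, 774, 786 and 804 of the DGRP (Drosophila Genetic Reference Panel), each of them inbred so that it carries a fixed set of natural variants. Each line had 2 libraries of male whole bodies, and each sample was a pool of 10 adults aged 5 days. A separate D.mel stock, UCSD stock 14021-0231.69, and the species D.vir, D.pse, D.ana, D.yak and D.sim had male and female whole bodies of the same age, with 1 pooled value per species and sex. For D.vir, D.pse and D.ana, the study added a second round of targeted sequencing, with further primers and a regular PCR machine. No treatment and no engineered allele is given for any group. In a whole body, a change in the share of RNA from editing tissues and a change in editing within them cannot be told apart. A level is the share of reads with G, and the tables hold no genotype of the lines, so an edited A and a G in the DNA of a line cannot be told apart at a single site.

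The table of the lines lists 2380 sites, of which 556 had a level in all 16 libraries. The 2 libraries of each line were averaged, and a site was taken where the highest of the 8 line means lay 20 percentage points or more above the lowest. This gave 69 of 556 sites (12.4%). With the second highest line mean set against the second lowest, 13 sites reached 20 points. The sites were thus chosen by the line means, so the differences between lines are given as a description, with no test. The range of the line means at the 69 sites ran from 20.25 to 91.7 percentage points with a median of 25.85, beside a median of 5.85 over all 556 sites. It was under 30 points at 43 of the 69 sites, and it reached 30 points at 26, 40 points at 14, 50 points at 9 and 80 points at 5.

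The limit of 20 points cuts through a continuous series. Just inside it lay 2L position 13187842 (20.55 points), 3R position 4662906 (20.35 points) and 2R position 11662602 (20.25 points). Just outside lay 2R position 20802381 (19.80 points), X position 11833731 (19.65 points) and 3L position 11168876 (19.50 points). Positions are in the dm3 build named in the submitters' processing notes. No annotation of that build was at hand, so the sites are named by chromosome arm and position and are not assigned to a gene or an exon. By chromosome arm, the 69 were 7 of 63 sites on 2L, 23 of 144 on 2R, 12 of 100 on 3L, 18 of 107 on 3R, 9 of 134 on X and 0 of 8 on chromosome 4. The share was thus 15.97% on 2R and 16.8% on 3R but 6.72% on X. Outside 2R, 32 of 46 sites were the target position of a primer pair in the study's primer table, and all 46 lay within 150 bp of a target.

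The 69 sites were edited at intermediate levels. The mean over the lines had a median of 35.6% at the 69 sites and ran from 5.07% to 87.2%. The median of the other sites was 8.21%. A range of 20 points needs room, and 3 of 268 sites with a mean under 10% and 2 of 19 sites with a mean of 80% or more were among the 69. Between means of 20% and 50%, 37 of 126 sites were among them.

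Since the levels come from amplicons, the primers set which sites were read together. The X position 1272312 was targeted by 1 primer pair, and 2 further sites of the 69 lay 14 and 5 bp from it. The pair is shown, 5′ to 3′, because no other target of the table lay within 150 bp of these 3 sites.
X target 1272312, forward primer: gattgaccattacccggaaga
X target 1272312, reverse primer: tacacagccgcacaaaga
The site with the widest range, X position 19535625, was targeted by a pair of its own, and position 19535621, 4 bp away, by another pair. These primers are shown because both pairs use 1 forward primer of 21 bases, in capitals, and differ in the reverse primer.
X target 19535625, forward primer: ATACCGTTCCTTGTTCCTTGT
X target 19535625, reverse primer: aatacagatccacccagtaca
X target 19535621, reverse primer: ccacaaattgttttgcaggta
On 3R, 3 sites of the 69 lie within 193 bp around neighbouring targets. The reverse primer of target 16844310 and the forward primer of target 16844511 are shown because 18 bases of them, in capitals, are the reverse complement of each other.
3R target 16844310, reverse primer: CTTCGGATGAGAGGCTACct
3R target 16844511, forward primer: GTAGCCTCTCATCCGAAGgt

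The agreement of the 2 libraries of a line set how firmly a pattern could be read. At 67 of 69 sites both libraries of the highest line lay above both libraries of the lowest line. The same held at 498 of all 556 sites (89.6%), and since the rule used this contrast, nothing is read from it. The exceptions were 3L position 9144936 and 3R position 4662906. At 25 of the 69 sites the libraries lay within 10 points of each other in every line, and at 44 sites they differed by more than 10 points in at least 1 line. These counts were not made over all 556 sites, so they are not read as a trait of the 69. The largest library difference exceeded the range of the line means at 12 sites. With 1 column of each line taken alone, the range stayed at 20 points or more in both sets of columns at 51 sites. Spearman's rho between the sets over the 8 lines had a median of 0.643. The rule used the means of these same columns, so both values are partly set by it and nothing is read from them.

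Line 774 stood apart in this respect at the 69 sites, and no such count was made over the other sites. Its libraries differed by more than 10 points at 29 of the 69 sites, and at 25 sites the largest library difference belonged to this line. The median difference between its libraries was 7.9 points, against 2.2 to 3.5 points in lines 26, 325, 352, 441, 786 and 804. Line 441 had a difference of more than 10 points at 19 sites. Line 721 had the smallest median difference, 1.6 points, but its 2 columns carry the same label and are not known to be separate samples of flies. Without line 774, the rule would keep 55 of the 69 sites, and without line 721 it would keep 62. Leaving out 1 of the other lines kept between 56 sites (line 26) and 66 sites (line 352).

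**Figure D1:**
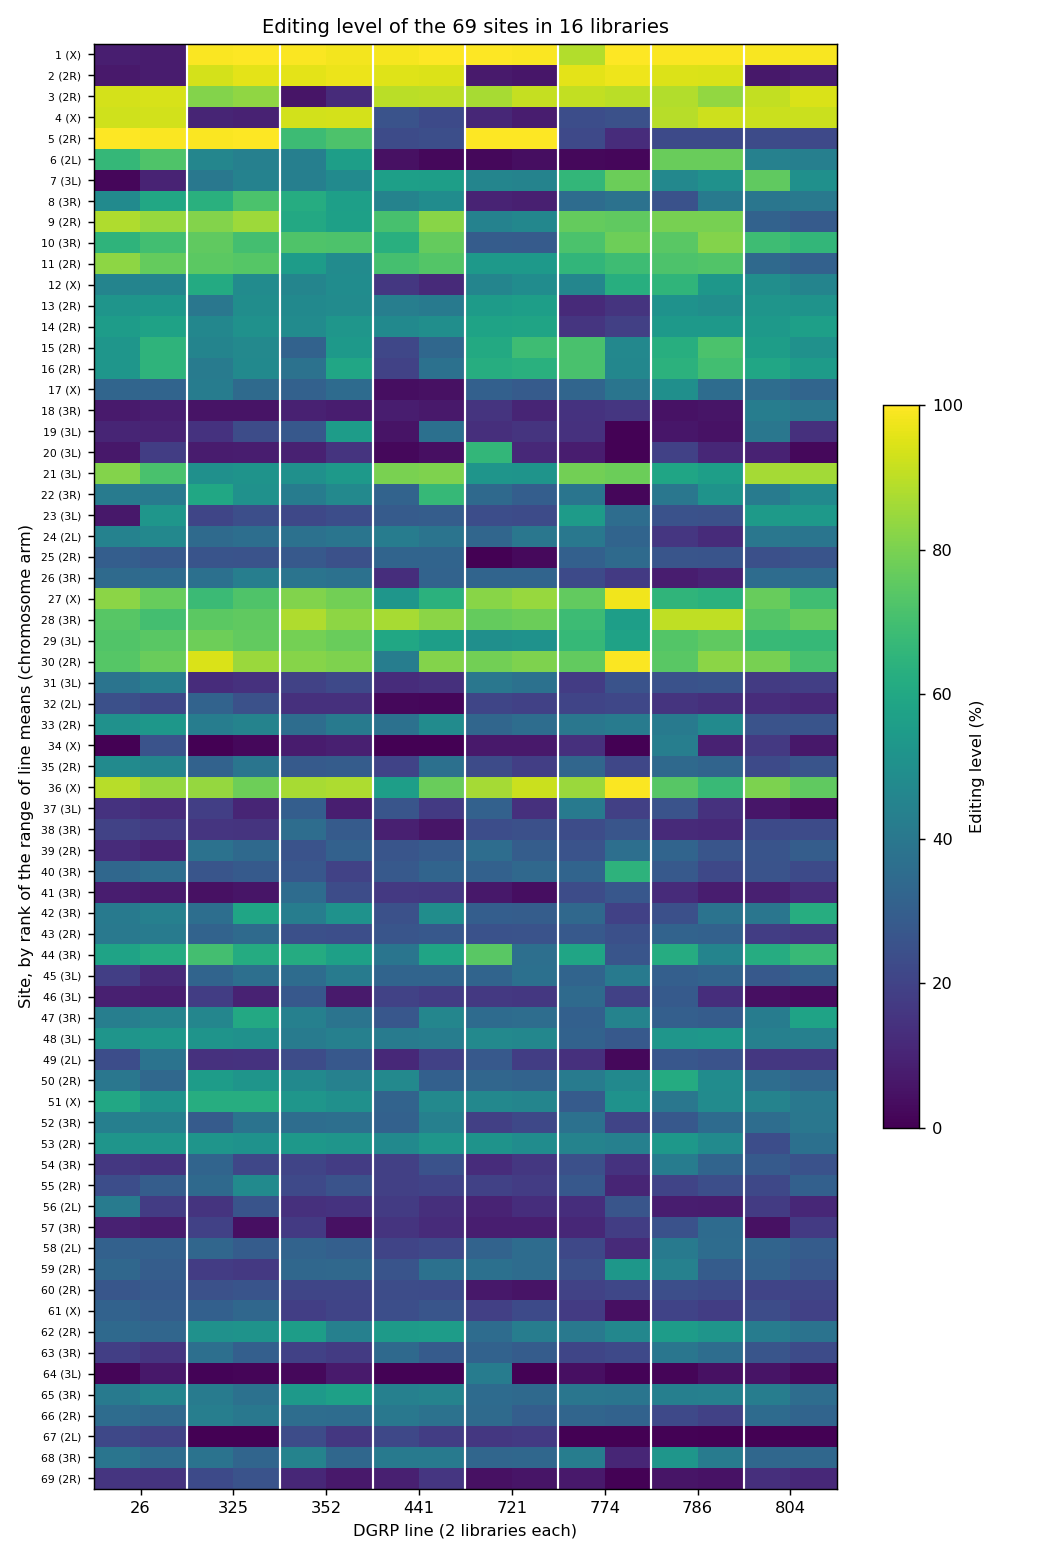
Editing level (%) of the 69 sites, 1 row per site in order of the range of the line means, in the 16 libraries of the 8 DGRP lines (2 columns per line, set apart by white lines). The rows at the top change between full columns of a line, while many rows below change within the 2 libraries of line 774.

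No line was high or low throughout. Line 774 was lowest at 15 sites, lines 441 and 721 at 14 each, lines 786 and 804 at 7 each, line 26 at 6, line 325 at 4 and line 352 at 2. Line 786 was highest at 15 sites, lines 26 and 325 at 13 each, line 774 at 9, line 352 at 8, line 721 at 6, line 804 at 4 and line 441 at 1. The median level over the 69 sites lay between 29.8% (line 774) and 39.45% (line 325).

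The shape of the pattern differed between sites. The 8 line means of each site were sorted. The widest gap between neighbours made up 50% or more of the range at 32 sites. These are called split, into a low and a high set of line means. The same count was not made over all 556 sites. A split can rest on 1 library, as at 3L position 9144935, where line 721 alone was high, with 66.4% and 11.4%. The other 37 sites were graded. At 17 of the 32 split sites 1 line was low and 7 were high, at 8 sites 1 line was high, and at 7 sites each set held 2 or more lines. Every line was the single low line of at least 1 site. Line 26 was so at 4 sites and lines 721 and 774 at 3 each.

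The widest range belonged to X position 19535625. Its libraries of line 26 read 8.5% and 7.5%, and those of the other lines ran from 88.3% to 99.9% with 13 of the 14 values at 98.4% or more. Averaged over its libraries, line 26 stood at 8.0% ± 0.71 (SD, n = 2 libraries), and the other lines had means between 94.05% and 99.7%. The lone lower value, 88.3%, came from the first library of line 774. The D.mel stock lay with line 26, at 10.2% in males and 1.25% in females.

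At 2R position 5929235 the lines fell into 2 sets with nothing between them. Both libraries of lines 26 (6.8% and 7.8%), 721 (7.3% and 6.0%) and 804 (6.3% and 8.0%) were under 10%. All libraries of lines 325, 352, 441, 774 and 786 lay between 93.7% and 97.5%. The gap between the sets was 96.8% of the range, and the stock lay with the low set, at 5.3% in males and 6.25% in females. The lowest high line, 786, had a mean of 94.45% ± 0.35 (SD, n = 2 libraries).

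Line 352 was the single low line at 2R position 19894078. Its libraries read 5.5% and 12.3%, while the 14 other libraries lay between 81.3% and 94.2%. Stock males stood at 90.9%, inside the high set. The range of the line means was 84.85 points.

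X position 19107872 showed 3 levels. Lines 26, 352, 786 and 804 read between 89.2% and 93.4% in all libraries. Lines 441 and 774 read between 22.6% and 25.4%, and lines 325 and 721 between 8.2% and 11.1%. The stock, at 90.55% in males, lay with the highest set. The 3 sets did not overlap in any library.

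A 3-level pattern was also seen at 2R position 6168396. Lines 26, 325 and 721 read 99.5% or more in each library, and line 352 read 68.4% and 72.0%. The remaining lines lay between 12.6% and 23.9%, of which the lowest value belonged to line 774 (22.1% and 12.6%). Stock males were listed at 100%. The site 97 bp away at 6168493 did not divide the lines in this way: there line 804 was lowest (23.6% and 37.0%) and the line means of the others lay between 44.15% and 52.8%.

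**Figure D2:**
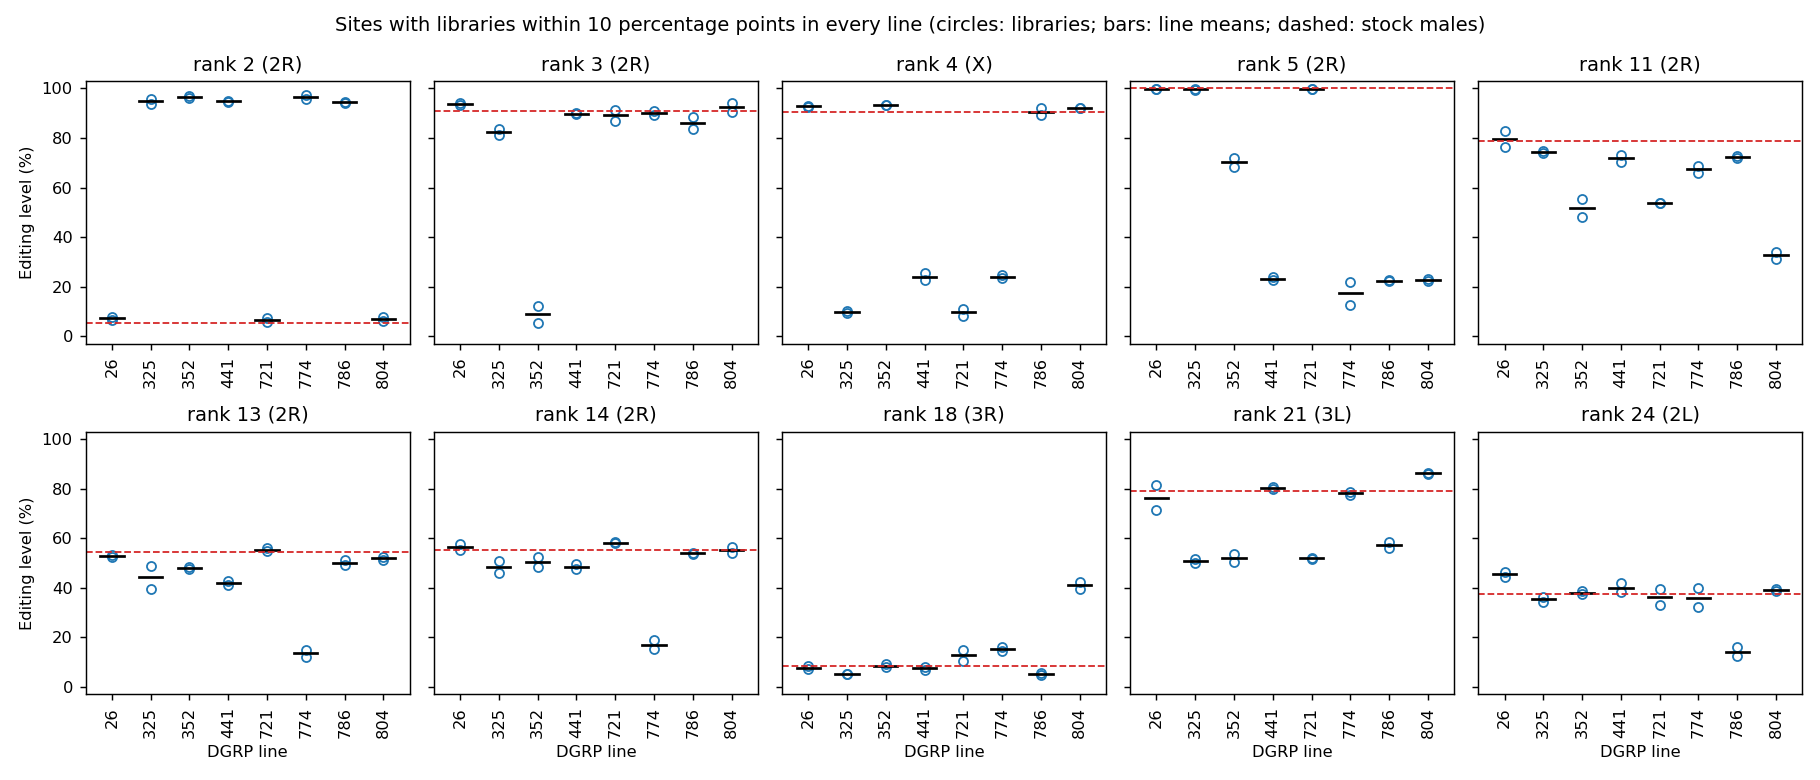
Editing level (%) of the 10 sites with the widest range among those whose libraries lay within 10 percentage points in every line, named by rank and chromosome arm. Circles are libraries, bars are line means and the dashed line is the level of D.mel stock males; the panel of rank 2 shows 3 low lines under 10% and 5 high lines above 90%.

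Among the sites with libraries within 10 points in every line, the next ones by range were 2R positions 9697052, 7337823 and 7337822, 3R position 7990069, 3L position 4590709 and 2L position 9717707. The 3R position 7990069 was the reverse of the sites with 1 low line. Line 804 was high there (42.5% and 39.7%), and the 14 other libraries lay between 4.7% and 16%. Stock males stood at 8.6%.

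At 2L position 9717707 line 786 was low, with 16% and 12.4%, beside 32.1% to 46.6% in the 14 other libraries. The stock was at 37.45% in males and 28.55% in females. Both values lay above line 786 and inside the span of the line means.

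Line 721 was the single low line at 3R position 13708487, 2R position 7335492 and 2R position 4791185. Its libraries read 29.1% and 28.9% at the first, while all others lay between 63.1% and 81.3%. They read 0.2% and 2.4% at 2R position 7335492, beside 24.3% to 34.4% elsewhere, and 6.6% and 5.4% at 2R position 4791185, beside 19.9% to 28.2% elsewhere. At each of these sites the columns of line 721 lay below all other libraries.

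The split site with the narrowest range was 2L position 13187842. Lines 26, 352, 441 and 721 had means of 20.6%, 19.85%, 19.85% and 16.6%, and lines 325, 774, 786 and 804 had means of 0.05% to 0.30%. No library of the low set exceeded 0.6% and none of the high set was under 16.2%. Stock males stood at 1.0% and stock females at 0.40%, near the low set.

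Graded sites had no such gap. At 3L position 2126093 lines 26 and 721 read 37.4% to 42.9%, and the other lines formed a series from 12.6% to 25.8%, so that the gap was 48.4% of the range. At 3R position 5595147 the line means rose in small steps from 16.9% in line 26 to 37.65% in line 786. The libraries of these 2 sites differed by at most 7.7 points in any line.

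At other sites the 2 libraries of 1 line lay far apart. The 2 columns of line 721 read 66.4% and 11.4% at 3L position 9144935, which was the largest library difference of all (55.0 points), and 42.0% and 0.5% at 9144936, the next base. The 14 other libraries lay between 0.5% and 19.4% at the first site and between 0.5% and 7.3% at the second. At 3R position 4662906 line 774 read 42.5% and 10.7%, and 10.7% was the lowest of all 16 values.

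Many sites have further sites nearby, and 46 of the 69 (66.7%) had another of the 556 sites within 50 bp, beside 382 of 556 (68.7%) over all. Of the 69, 20 had another of the 69 within 50 bp, in 13 pairs. Pearson's r of the line means over the 8 lines had a median of 0.81 in these pairs and ran from 0.21 to 0.996, with 7 pairs at 0.8 or more. The same line was lowest at both sites in 11 pairs and highest in 10. In 1817 pairs on different chromosome arms, the median r was 0.01 and 1.27% of pairs reached 0.8.

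The 2 sites of a close pair come from the same libraries and lie near the same target positions, so an error of 1 library enters both. With 1 site taken from the first and the other from the second library of each line, the median r within 50 bp was 0.51. This value rests on 1 library per site and line, whereas the r of the line means rests on 2. The values thus differ in averaging as well as in the sharing of libraries. How much each of these adds to the lower r was not tested. No r across libraries is given for pairs on different chromosome arms, so the lower value has no background. These correlations over 8 lines are a description, and no test was run on them.

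The most alike pair was 2R positions 7337822 and 7337823, which are adjacent bases (r = 0.996). Line 774 was the single low line at both, with 15.5% and 18.8% at the first and 12% and 15.1% at the second. The other libraries lay between 46.1% and 58.5% and between 39.7% and 55.9%. With the sites taken from different libraries, r was 0.98 and 0.99. A site 19 bp further, at 7337842, was low in level (5.29% on average over the lines) but had a like pattern over the lines (r = 0.95 with 7337823). In contrast, 2R position 7335492, 2330 bp away, had line 721 as its single low line, and its r with this pair was −0.47 and −0.50.

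On X, 3 sites lay within 19 bp, around the target of the primer pair shown for 1272312. Line 441 was the single low line at 1272312 (3.9% and 4.4%) and at 1272317 (16.4% and 12%). The other libraries lay between 28.8% and 49.7% at the first and between 45.1% and 65.5% at the second, and r was 0.99. With the sites taken from different libraries r was 0.82 and 0.84. The third site, 1272298, was uneven between libraries. It read 42.6% and 9.6% in line 786, 0.1% and 25.5% in line 26 and 0.2% and 0.1% in line 441, and its r was 0.57 with 1272312 and 0.53 with 1272317. Without lines 441 and 786, those farthest from the median at 1272298, these were −0.56 and −0.79. With the sites taken from different libraries, r was 0.37 and 0.26 with 1272312 and 0.41 and 0.19 with 1272317.

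A pair 4 bp apart on X, positions 14166125 and 14166129, was high in all lines. Its line means lay between 58.2% and 86.95% and between 66.6% and 92.3%, with line 441 lowest and line 774 highest at both (r = 0.98). Its libraries disagreed in these same 2 lines. They read 52.5% and 63.9% in line 441 and 76.1% and 97.8% in line 774 at the first site, and r fell to 0.56 and 0.62 with the sites taken from different libraries.

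The pair of 2R positions 20306770 and 20306773, 3 bp apart, gave a like picture. Line 441 was lowest (19.7% and 37.3% at the first, 21.3% and 33.3% at the second) and r was 0.98. Line 774 read 71.4% and 46.4% at the first and 71.2% and 46.7% at the second. The 2 sites thus moved together within a library more closely than 1 site did between libraries, and r across libraries was 0.62 and 0.45.

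Adjacent bases at 3L positions 4590708 and 4590709 shared line 804 as the highest, with 54.4% and 53.7% at the first and 86.4% and 86.0% at the second. At 4590709 the lines divided into 26, 441, 774 and 804, with means of 76.3% to 86.2%, and 325, 352, 721 and 786, with 50.8% to 57.3%. At 4590708 line 26 read 6.4% and 52.4%, the widest library difference of that site. Position 4590685, 24 bp before 4590709, followed this division less. Line 26 was its single low line, at 1.7% and 9.8%, although line 26 lay in the high set at 4590709. Over the 8 lines r between 4590685 and 4590709 was 0.21. Over the 6 lines left without 26 and 774, those farthest from the median at 4590685, it was 0.98.

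At 3L positions 9144935 and 9144936, r was 0.95 from the line means. With the sites taken from different libraries it was −0.28 and 0.10. Without lines 441 and 721, those farthest from the median at 9144935, it was 0.32. Without line 721 alone it was 0.55.

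A further 3 pairs within 50 bp were 3L positions 11168868 and 11168895 (27 bp, r = 0.95), 2L positions 3762337 and 3762371 (34 bp, r = 0.66) and 3R positions 23500600 and 23500629 (29 bp, r = 0.65). At 3L position 11168868, line 804 was low at 5.9% and 3.0%, and at 11168895 it read 4.2% and 2.8%. At 2L position 3762337, lines 441, 721 and 774 lay between 1.9% and 4.4% in all libraries and the others between 43.3% and 77.3%. At 3762371 the same 3 lines had means of 15.5%, 23.05% and 7.95%, while the others lay between 14.45% and 30.95%. The 3R pair had line 774 lowest at both sites, and with the sites taken from different libraries its r was −0.37 and 0.37. At 23500629 the second library of line 774 was the lowest of all 16, at 1.6% beside 39.0% in the first, and without line 774 the range of the line means was 23.0 points.

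**Figure D3:**
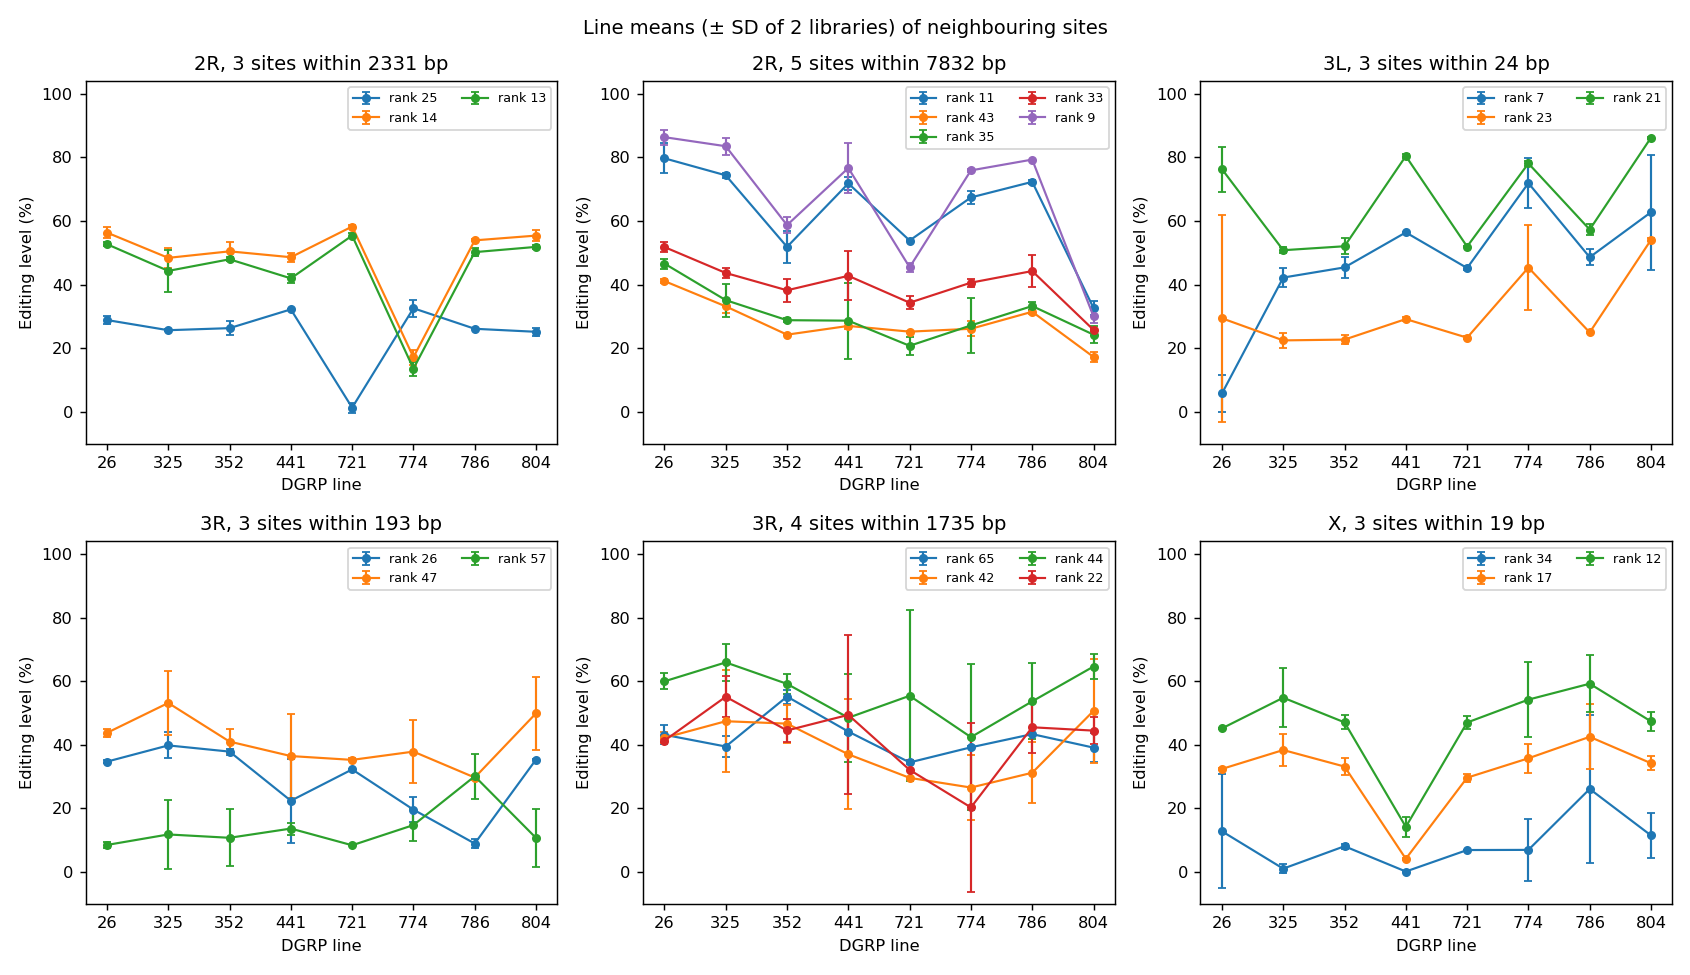
Line means (%) with the SD of 2 libraries as error bars for the 6 groups of 3 or more of the 69 sites with gaps of at most 10 kb, named by rank, over the 8 DGRP lines. Error bars that reach below 0 follow from 2 distant libraries. The adjacent sites of ranks 13 and 14 dip together in line 774, and 2 of the 3 sites within 19 bp on X dip together in line 441.

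Beyond 50 bp, 23 pairs lay up to 10 kb apart. Their median r was 0.74 with 11 pairs at 0.8 or more, whereas 493 pairs further apart on the same arm had a median of 0.03 and 1.01% of them reached 0.8. The longest run was on 2R, where 5 sites between positions 9697052 and 9704884 lay within 8 kb and gave r from 0.71 to 0.97 in all their pairs. These 5 sites made 10 of the 23 pairs and 8 of the 11 at 0.8 or more. The other 13 pairs had a median r of 0.36, with 3 at 0.8 or more and 4 below 0. Line 26 was highest at all 5. Line 804 was lowest at 4 of them, and at 9697467 line 721 was lowest.

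The ends of that run, 7832 bp apart, were the most alike of the 23 pairs (r = 0.97). At 9697052 line 804 read 34.2% and 31.1% and line 26 read 83.0% and 76.4%. At 9704884 line 804 read 31.4% and 28.6% and line 26 read 88.0% and 84.7%. Lines 352 and 721 lay between these at both ends, with means of 45.45% to 58.7%. With the sites taken from different libraries r was 0.97 and 0.93.

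Likewise, 2R positions 11652804 and 11662602 lay 9798 bp apart and shared line 325 as the highest (34.0% and 47.9% at the first, 22.4% and 25.5% at the second), with an r of 0.90. Without lines 325 and 721 this r was 0.64. Of the 3 sites on 3R from 16844318 to 16844511, the first and the last did the opposite. Position 16844318 was lowest in line 786 (7.9% and 10%) and 16844511 was highest there (25.1% and 35.1%), and r between them was −0.85. It was −0.41 without lines 774 and 786, and −0.78 and −0.34 with the sites taken from different libraries. Position 16844415, between them, had an r of 0.80 with the first and −0.58 with the last. Without line 786 these were 0.68 and −0.11. The libraries of 16844511 disagreed in several lines, as in lines 325 (19.5% and 4.1%) and 804 (4.3% and 17.1%). Spearman's rho between its 2 sets of columns was −0.07.

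**Figure D4:**
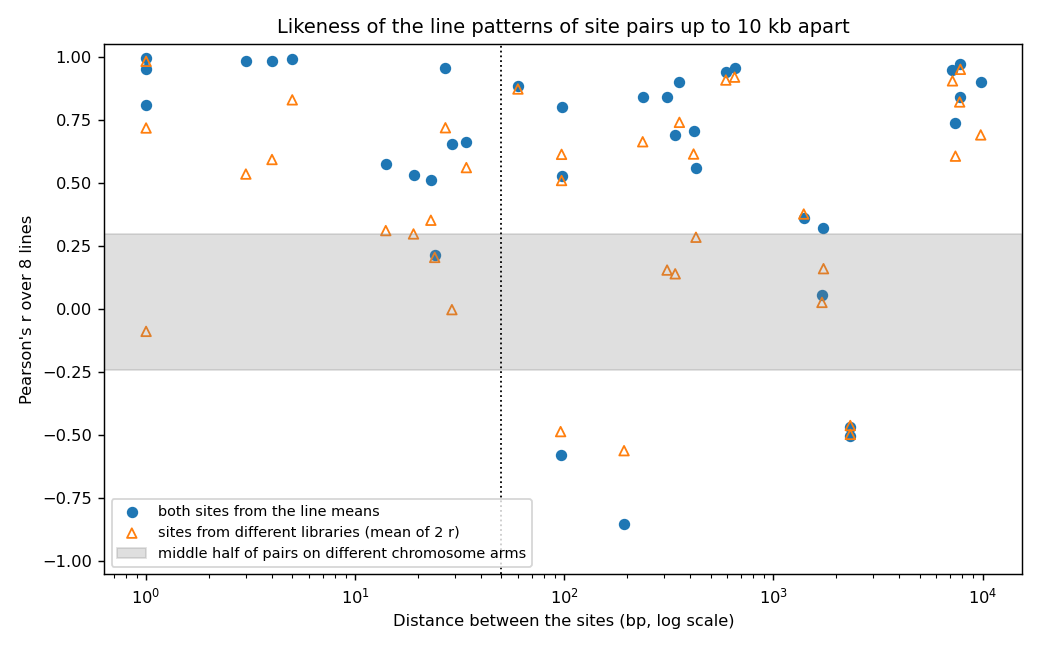
Pearson's r of the line means over the 8 lines against the distance in bp (log scale) for the 36 pairs of the 69 sites up to 10 kb apart. Filled circles use both libraries, triangles take the 2 sites from different libraries, the dotted line marks 50 bp, and the grey band holds the middle 50% of the pairs on different arms; most circles lie above the band.

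By the rule, neighbours that were not among the 69 had a range under 20 points. Within 50 bp of the 69 sites lay 63 of them, in 75 pairs, with a median mean level of 2.34% and a median range of 3.4 points. Their r with the wide site had a median of 0.41 and ran from −0.82 to 0.98, with 22 pairs at 0.8 or more. No such r was computed for distant sites, so this count has no background. The mean over the lines was under 2% at 28 of the 63. High and low r occurred among these, as at 2R position 11662565 (mean 1.71%, r = 0.97) and 3R position 4663337 (mean 0.58%, r = −0.82). The base next to 3R position 13708487, at 13708488, had line means of 4.85% to 14.1% (r = 0.98). Near 2R position 4791185, positions 4791178 and 4791179 had an r of 0.98 and 0.97 with it.

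Other neighbours did not follow the wide site. Position 19535621, 4 bp from the site with the widest range and amplified with the same forward primer, had line means of 4.0% to 19.95% and an r of 0.08. At 3R position 21791353 the line means ran from 5.15% to 29.4% with line 352 highest (35.4% and 23.4%). Position 21791365, 12 bp away, was at 91.1% on average over the lines with a range of 5.5 points, and r was −0.07. A wide range at 1 base could thus stand beside a near-constant, near-complete level 12 bp away.

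The D.mel stock gives levels that the rule did not use. A male level was present at 47 of the 69 sites, and it lay outside the span of the 8 line means at 10 of them, 7 above and 3 below, where the share over all sites was 42.6% (213 of 500). The span is wide at these sites by the rule, so the lower share is not read as a result. Of 61 sites with a female level, 24 lay outside the span, 19 of them below, and the share over all sites was 57.6%. The lines were males, so the female comparison also holds the difference between the sexes.

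The stock males lay furthest above the lines at X position 1272312 (56.3% beside a highest line mean of 42.5%) and X position 1272317 (71.4% beside 59.2%). They lay furthest below at 3R position 16844511 (1.7% beside a lowest line mean of 8.4%). With respect to the highest line, stock males were lowest at 2R position 5929235, X position 19535625, 3R position 7990069, 3L position 9144935 and 3R position 16844511, by 91.35, 89.5, 32.5, 31.75 and 28.4 points.

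In the other species, many of the 69 sites had no level. The study reports that its primers for D.mel amplified a smaller share of loci in more distant species. A missing level therefore does not show a lack of editing. A level in at least 1 sex was present at 63 sites in the D.mel stock, 54 for D.sim, 35 for D.yak, 29 for D.ana, 21 for D.vir and 20 for D.pse, and 2R position 11759871 had none in any species. The higher of the sexes reached 2% at 62 of 63 sites in the D.mel stock (98.4%, beside 79.2% over all sites with a level there) and 48 of 54 in D.sim (88.9%, beside 75.7% over all sites with a level in D.sim). It did so at 27 of 35 for D.yak (77.1%, beside 72.1% over all), 18 of 29 for D.ana (62.1%, beside 57.3%) and 11 of 20 for D.pse (55.0%, beside 54.1%). In D.vir it did so at 6 of 21 (28.6%), beside 47.2% over all sites with a level there. By the rule each of the 69 sites had a D.mel line mean of at least 20%, and no background of matched level was computed. The higher shares in the D.mel stock and in D.sim are thus not read as a result. The study set sites without an A in the DNA of a species to 0%, and the levels under 1% printed here are above that value. Other levels at the 69 sites were 0%. These were D.vir males at 2R position 19894078 and 3R position 23498894, D.ana males at X position 14166129 and D.pse males at 2L position 3762371. The first of them enters the comparison with D.vir males. Whether these sites hold an A was not tested.

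Males of the D.mel stock and of D.sim were compared at 31 of the 69 sites. Their levels differed by 20 points or more at 10 sites, 9 of them higher in D.mel, beside 4.99% of all 361 sites with both levels, of which 13 of 18 were higher in D.mel. The 69 sites have higher levels than the rest. Among sites at 20% or more in stock males, 10 of 22 of the wide sites and 6 of 99 of the other sites differed by this much. Each value is a single pooled level, so no test could be made and the sampling error of the differences is unknown.

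The 5 largest differences from D.sim included sites of different line patterns. X position 19107872 stood at 90.55% in D.mel and 0.35% in D.sim, with 0.45% in D.ana. The D.sim level was lower than in each of the 8 lines, of which the lowest mean was 9.65%. 3L position 4590709 stood at 79.0% in D.mel and 2.9% in D.sim, and 3R position 20501385 at 88.65% and 54.65%. 2R position 13262374 fell from 49.0% in D.mel to 20.35% in D.sim, near its lowest line (20.7% in line 786). 3R position 23500290 was the exception in direction, with 25.3% in D.mel and 58.35% in D.sim.

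The more distant species shared fewer sites. Differences of 20 points or more between males were seen at 2 of 13 sites with D.yak (7.41% over all sites), 5 of 15 with D.ana (15.7%), 2 of 11 with D.pse (9.95%) and 7 of 11 with D.vir (16.3%). Among sites at 20% or more in stock males, the counts for the wide and the other sites were 7 of 9 and 22 of 48 for D.vir, 5 of 11 and 23 of 62 for D.ana, 2 of 9 and 18 of 90 for D.yak and 2 of 10 and 16 of 56 for D.pse. All 7 sites that differed from D.vir were higher in D.mel, as were 26 of the 29 over all sites. Between females, the counts were 9 of 42 with D.sim (5.36% over all sites), 2 of 31 with D.yak (4.79%), 7 of 20 with D.ana (11.5%), 2 of 11 with D.pse (10.2%) and 1 of 6 with D.vir (8.05%). The site 2R position 9697052 was edited in males of all 6 species, at 78.7% in the D.mel stock, 98.0% for D.pse, 60.95% for D.yak, 58.75% for D.sim, 56.55% for D.vir and 54.95% for D.ana, which are all within or above the span of its line means (32.65% to 79.7%).

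**Figure D5:**
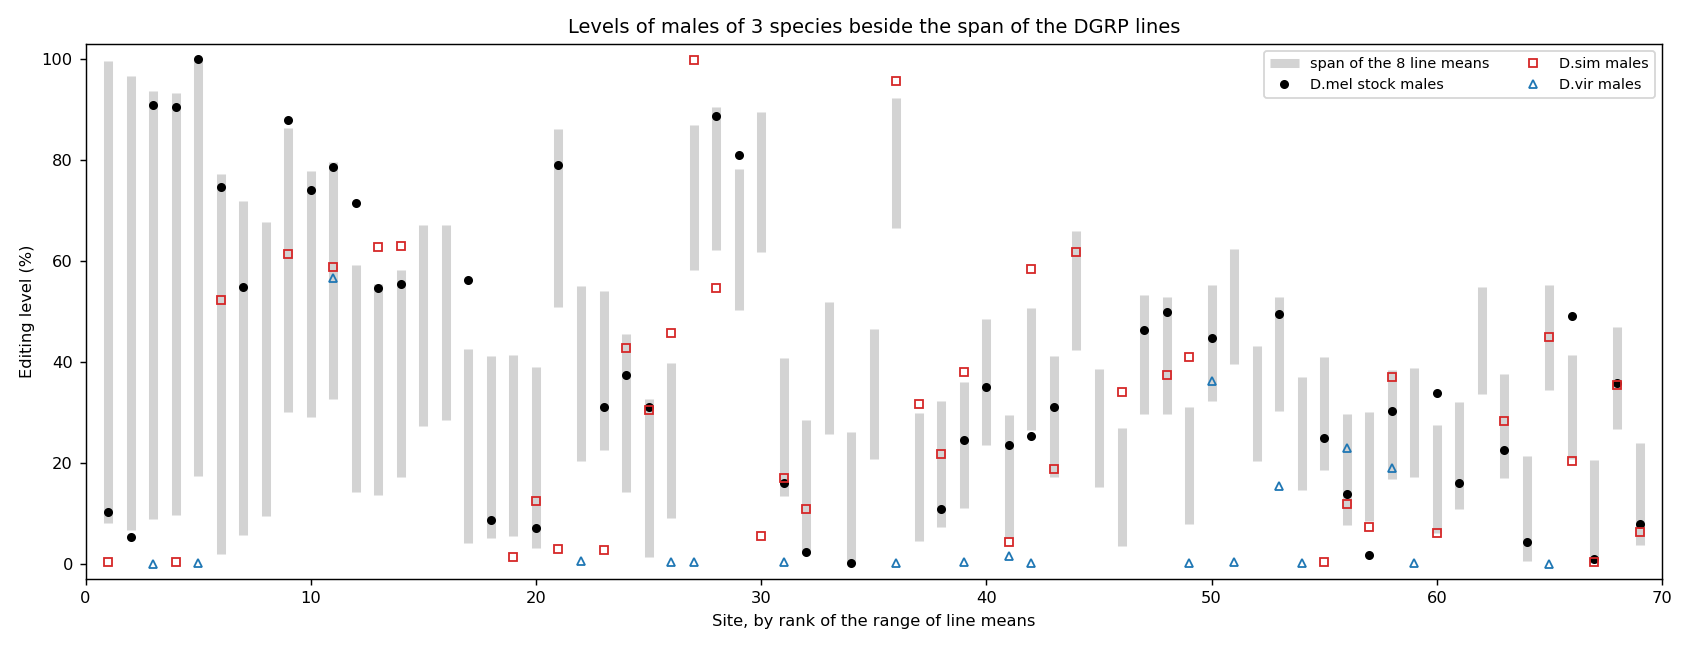
Editing level (%) of males of the D.mel stock (filled circles), D.sim (squares) and D.vir (triangles) beside the span of the 8 line means (grey bars) at the 69 sites in order of the range of the line means. Most D.mel circles lie on the bars, while most triangles of D.vir lie near 0.

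Within the D.mel stock, 45 of the 69 sites had a level in both sexes. Males and females differed by 20 points or more at 5 sites, all higher in males, beside 7.57% of 489 sites, where all 37 such sites were higher in males. The widest differences were at 3R position 16844415 (46.4% in males and 6.7% in females) and X position 1272317 (71.4% and 36.55%). They were followed by 2R position 17203191 (44.75% and 14.75%), X position 1272312 (56.3% and 28.5%) and 2L position 6452387 (30.3% and 8.9%). Among sites at 20% or more in stock males, such a difference was seen at 5 of 31 of the wide sites and 32 of 140 of the others. At the 5 sites with the widest range between lines, the sexes differed by at most 8.95 points, at X position 19535625 (10.2% and 1.25%).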

How the data were processed

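Reads were demultiplexed (FASTX Toolkit) and aligned (TopHat) by the authors, who kept sites with ≥50 reads. The authors deposited the level of each site as a fraction of reads, with 1 value per library for the DGRP lines and 1 per species and sex for the stocks. For its divergence analyses the study kept mmPCR-seq sites whose replicates differed by at most 10% and preferred mmPCR-seq to RNA-seq levels. Whether the deposited values carry this filter, and how sequencing rounds were merged in them, is not given in the sources used here. No read counts are given, so the depth behind a level is unknown and intervals for counting error could not be given. Each library had a level at 603 to 667 sites, and 0 columns were left unassigned.

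Levels were converted to percent. In 16 positions the letters NA were restored to the digits 200, which touched 0 of the 69 sites. The 2 columns of line 721 could not be tied to single samples. Sites, groups and limits were chosen with earlier results of these data known. Sites named in the text are the 10 widest with libraries within 10 points in every line, those with another such site within 50 bp, the 3 on each side of the limit, the 5 with the largest D.mel to D.sim difference, the 5 where stock males were lowest relative to the highest line, and the one with the largest library difference. These are 38 sites, and any further ones were chosen after their values were seen. The selection was run on simulated data and found 60 of 60 planted sites among 556, with 0 false ones. The planted shift lay above the limit and the simulated noise was small, so this only checks that the rule was applied correctly. At the 69 sites the largest library difference had a median of 13.3 points. The simulation thus gives no rate of false sites in these data. The work used Python 3.11.15, numpy 2.4.6, pandas 2.3.3 and matplotlib 3.10.9. Primers came from the study's primer table. Alternatives were other limits, single libraries or lines left out, female levels and pairs read across libraries.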

Additional observations from a re-analysis of the deposited data

How the results depend on the processing

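Of 114 values recomputed under alternatives for 12 results, 100 stayed within a set margin. Some of these could not move, or hardly could. Leaving out restored positions removed 0 of the 556 sites. The limit of 20% in stock males kept every site that was higher there by 20 points. The 100 are thus not read as a measure of stability. The margin was 1.5 times the reported count or, for the median correlations, 1 SD over the pairs. A count could not reverse, and of the median correlations 0 did. The margin for correlations was wide. With the longest run left out, the median r from 51 bp to 10 kb went from 0.74 to 0.36 and counted as within it. The number of wide sites moved from 69 to 105 at a limit of 15 points, 38 at 25 points, 43 when only lines with libraries within 10 points were used in at least 6 lines, and 13 when the second highest was set against the second lowest line mean. The split sites went from 32 to 21 with a gap of 60% of the range. Sites with another wide site nearby went from 20 to 37 at 10 kb, and the median r within 50 bp from 0.81 to 0.51 with the sites of a pair from different libraries. The last 2 alternatives, and setting the longest run on 2R apart among the pairs beyond 50 bp, were chosen after the data were seen. So were the limit of 20% in stock males and leaving out each library for the sites outside the span. Sites outside the span of the lines went from 10 to 24 with the female level and to 5 when more than 5 points were required. With a difference of 10 points, D.sim gave 16, D.yak 8, D.pse 6 and the sexes 13 sites, and D.vir gave 1 site with female levels. The cause of these changes beyond the altered limit was not tested. Leaving out each library in turn gave 63 to 87 wide sites (the highest without DGRP 774 replicate 1), 29 to 35 split sites, a median r of 0.776 to 0.866 and 9 to 12 sites outside the span. No paired analysis was possible because no result comes from a test between groups. Without read counts, differences of a few points between single libraries could not be set against counting error.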

Other observations

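A further 48 sites had a level in at least 1 library of every line but not in all 16, and 16 of them had a range of line means of 20 points or more. The widest were 3R position 23500458 (51 points, 27.5% in line 441 and 78.5% in line 774), 3L position 4586718 (48.2 points, 0% in line 325 and 48.2% in line 26) and 2L position 8052588 (41.25 points, 5.45% in line 774 and 46.7% in line 786). In each of these the highest line had a level in 1 library. At X position 4116021 both the lowest and the highest line had 2 libraries, with 3.4% in line 325 and 42.85% in line 26.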
